A study of Mus musculus with 2 samples.

Results

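Mir132 and Mir212 are neighbouring microRNA genes on mouse chromosome 11 whose precursors are cut from one transcript. They were taken as the rows of both deposited count tables whose Ensembl identifier has the GENCODE M21 symbol Mir132 or Mir212, which gave 2 of 2202 microRNA genes. The tissue was hippocampus from female B6CASTF1/J mice aged 14 days, and small RNA was sequenced. B6CASTF1/J is the first-generation cross of C57BL/6J and CAST/EiJ, and the tissue label names a layer of hippocampus without saying which. There was a single group of 2 biological replicates, each a pool labelled with 3 females and sequenced as 1 library. The labels name no treatment or stimulus, so induction by activity was not measured, and a difference between pools cannot be told apart from one in library preparation. Counts per library summed to 4764797 in replicate 1 and 2852269 in replicate 2, and a count of 0 allowed up to 0.630 and 1.05 counts per 1000000 reads assigned to genes (CPM). Intervals on reads cover counting error only, since amplified reads without molecular identifiers are not independent molecules.

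A microRNA is a short RNA that guides a repressor complex to messenger RNAs, mainly through its seed, the bases 2 to 8 from its 5′ end. In neurons the transcript of this locus is known to be switched on by the transcription factor CREB after synaptic activity or neurotrophin signals. miR-132 is known for promoting dendrite growth and spine formation in hippocampal neurons. miR-212 has been linked to drug intake and to synaptic plasticity in rodents.

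The mature sequences are shown because the arms differ in what the genes share, and capitals mark the seed. They were taken from RefSeq (build GRCm38.p6), in which both genes matched by symbol.
mmu-miR-132-3p: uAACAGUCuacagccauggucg
mmu-miR-212-3p: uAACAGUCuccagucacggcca
mmu-miR-132-5p: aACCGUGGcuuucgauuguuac
mmu-miR-212-5p: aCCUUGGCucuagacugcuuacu

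The 3p arms carried the same seed, AACAGUC, and no gene other than Mir132 and Mir212 among 1738 mature sequences of 1058 genes had it. Of 1398 different seeds in that table, 216 occurred in more than 1 gene, and 155 of these in exactly 2. Aligned from the 5′ end, the 3p arms were identical at 17 of 22 positions, and the first 9 bases were the same. The differences, written from miR-132-3p to miR-212-3p and counted from the 5′ end, were A10C, C14U, U17C, U20C and G22A, all outside the seed. The 5p arms had different seeds, each in 1 gene, were identical at 9 of 22 positions and shared a longest run of 5 bases.

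The hairpins are shown because the tables count reads per hairpin, and capitals mark the 2 mature arms.
Mir132 hairpin: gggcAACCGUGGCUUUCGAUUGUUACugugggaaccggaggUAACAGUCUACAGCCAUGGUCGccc
Mir212 hairpin: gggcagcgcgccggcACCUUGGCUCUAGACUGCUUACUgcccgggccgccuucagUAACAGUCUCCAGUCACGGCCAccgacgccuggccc

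The Mir132 hairpin had 66 bases and the Mir212 hairpin 91, beside a median of 82 over the 382 tested genes with a RefSeq hairpin. GC content was 57.6% for Mir132 and 69.2% for Mir212, and 104 and 12 of those 382 hairpins had more. The predicted minimum free energy was -37.2 kcal/mol for Mir132 and -41.5 kcal/mol for Mir212 (RNAfold). The longest run of bases shared by both hairpins was 10. RefSeq hairpins were matched by symbol for 968 of the 2202 genes. Among these, the longest run shared with any other hairpin was 10 for Mir132 and 11 for Mir212. Neither gene shared 20 bases with another microRNA gene, so a read of 20 bases from either has no exact match in another hairpin of the tables. The tables do not separate the arms, so how many reads carried the shared 3p seed was not measured.

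Mir212 (ENSMUSG00000065590.1) lies at chr11:75173388-75173478 and Mir132 (ENSMUSG00000065537.2) at chr11:75173682-75173747, both on the plus strand of GRCm38. The genes were 203 bases apart, with Mir212 first in the direction of transcription. Both lay in intron 1 of 1700016P03Rik (ENSMUSG00000085609.1), which is annotated as a processed transcript of 3 exons. The intron had 1380 bases, and the hairpins began 828 and 1122 bases after the start of the host transcript. The nearest protein-coding genes were Hic1, whose nearest side was 3868 bases before Mir212, and Ovca2, whose nearest side was 2194 bases after Mir132. Both of these are on the minus strand. Besides the host, no other gene overlapped either hairpin.

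**Figure D1:**
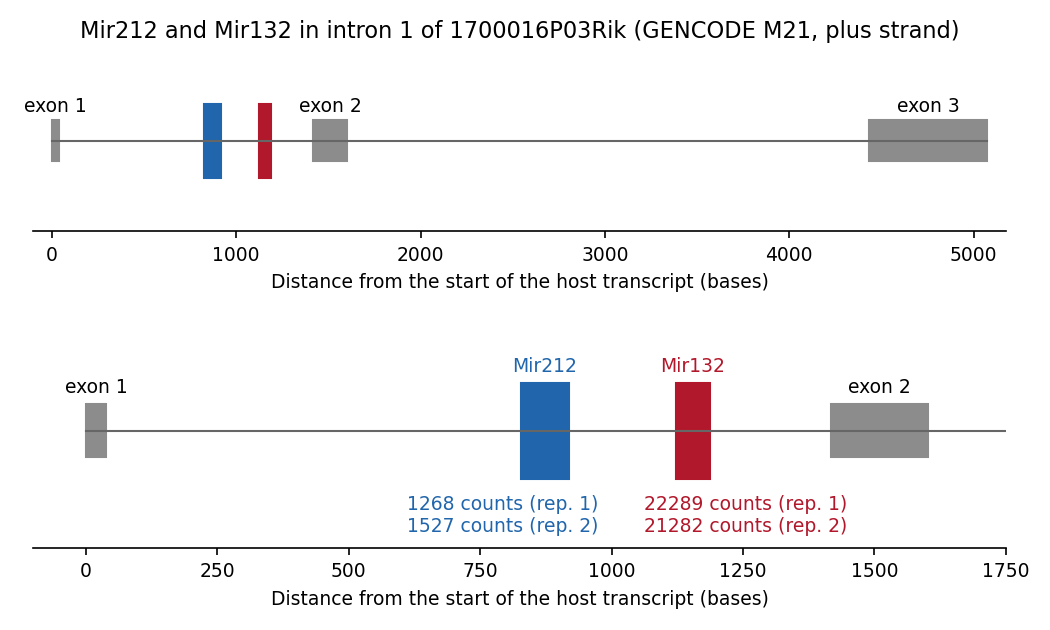
Map of the host transcript 1700016P03Rik with its 3 exons (grey), Mir212 (blue) and Mir132 (red). The x axis is the distance from the start of the host transcript in bases, and the lower panel enlarges the first intron. Reads counted for each gene are printed under it, and Mir132 had 22289 and 21282 beside 1268 and 1527 for Mir212.

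By assigned reads, Mir132 was among the more abundant microRNA genes, and Mir212 was detected at a much lower level. Multi-mapping reads, 40.8% of all reads in replicate 1 and 37.1% in replicate 2, were left out of these levels. Genes that share sequence with others can therefore rank too low beside Mir132 and Mir212. Of the 2202 genes, 788 had at least 1 read over both libraries. Mir132 had 22289 counts in replicate 1 and 21282 in replicate 2, or 4678 CPM (exact 95% interval 4617 to 4740) and 7461 CPM (7362 to 7562). Its mean of 6070 ± 1968 CPM (SD, n = 2) ranked 31 among 2202 genes, and it ranked 38 in replicate 1 and 29 in replicate 2. Replicate 2 was the higher library for this gene, and the counting intervals did not overlap.

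Mir212 had 1268 counts in replicate 1 and 1527 in replicate 2, or 266 CPM (252 to 281) and 535 CPM (509 to 563). Its mean of 401 ± 190 CPM (SD, n = 2) ranked 152, and it ranked 170 in replicate 1 and 137 in replicate 2. Replicate 2 was again the higher library, and the intervals did not overlap. Together the genes held 0.494% of assigned reads in replicate 1 and 0.800% in replicate 2, a mean of 0.647% ± 0.216 (SD, n = 2). Every count of both genes was on the sense strand. The opposite-strand column held 0 for each gene in each library, and the unstranded column held the same counts as the sense column.

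The genes next to Mir132 in mean level were Mir23a (6945 ± 1376 CPM) and Mir379 (6645 ± 974) above it, and Mir330 (5913 ± 492) and Mir187 (5782 ± 2926) below it (SD, n = 2). The CPM ranges of these 4 genes overlapped that of Mir132, so their order was not resolved by these libraries. The genes next to Mir212 were Mir421 (432 ± 95.7 CPM) and Mir7-2 (407 ± 193) above, and Mir376c (400.4 ± 144) and Mir34a (395 ± 273) below, and all 4 ranges overlapped that of Mir212. Mir23a, Mir7-2 and Mir376c share 20 bases with another microRNA gene, so their levels are uncertain.

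Mir132 gave many more reads than Mir212 in both libraries. There were 17.6 Mir132 reads per Mir212 read in replicate 1 (exact 95% interval 16.6 to 18.6) and 13.9 in replicate 2 (13.2 to 14.7), a mean of 15.8 ± 2.57 (SD, n = 2). Mir212 made up 5.38% of the reads of both genes in replicate 1 (5.10 to 5.68) and 6.69% in replicate 2 (6.37 to 7.03). A small RNA read covers a whole mature product, so its count does not grow with the length of the hairpin. Per base of annotated gene the Mir132 level was 24.2 times that of Mir212 in replicate 1 and 19.2 times in replicate 2. Ligation and amplification of single microRNAs can differ with sequence, so these are ratios of reads, and the ratio of molecules was not measured.

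Both genes were higher in replicate 2, and Mir212 by more than Mir132. With library sizes scaled by the trimmed mean of M values (TMM), the log2 ratio of replicate 2 to replicate 1 was 0.80 for Mir132 (95% counting interval 0.77 to 0.82), a 1.74-fold difference. It was 1.13 for Mir212 (1.02 to 1.24), a 2.19-fold difference. Both passed the two-sided exact binomial test with Benjamini-Hochberg adjustment over 450 genes, at an adjusted p of 1.93e-93 for Mir212 and below 1e-300 for Mir132. This test compares these 2 libraries and no conditions. Of the 450 genes that reached 20 reads over both libraries, 148 (32.9%) were called higher in replicate 2 and 144 (32.0%) lower, so a call by itself did not set either gene apart. The size of the difference was above the middle of the range, with a median absolute log2 ratio of 0.51 (quartiles 0.24 and 0.93) over all genes tested. The absolute log2 ratio was larger than that of Mir132 in 131 of 450 genes and larger than that of Mir212 in 78. With total counts as library sizes all log2 ratios shifted by -0.12, and the values were 0.67 for Mir132 and 1.01 for Mir212.

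**Figure D2:**
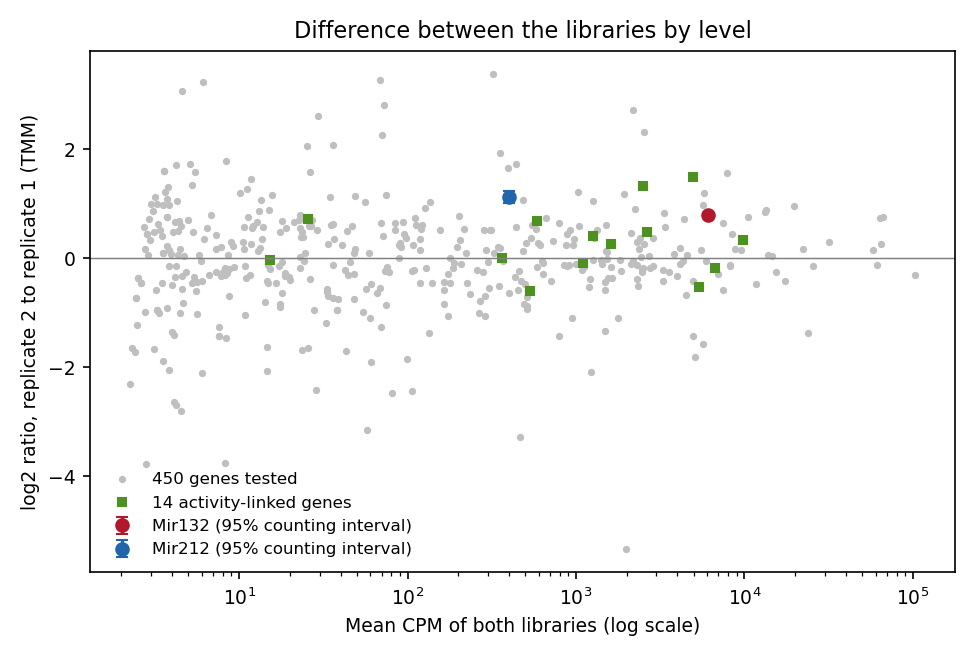
Log2 ratio of replicate 2 to replicate 1 after TMM scaling (y axis) against mean CPM on a log scale (x axis) for 450 tested microRNA genes. Mir132 (red, 0.80) and Mir212 (blue, 1.13) lie above 0 with their 95% counting intervals, and the 14 activity-linked genes (green) lie on both sides of 0.

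The share of the locus's reads that came from Mir212 differed between the libraries. The log2 ratio of Mir132 to Mir212 reads was 4.14 in replicate 1 and 3.80 in replicate 2, a change of -0.33 that does not depend on the scaling of the libraries. It passed Fisher's exact test, two-sided, at an adjusted p of 7.94e-09 over 61 neighbouring pairs. Such a difference was usual among neighbouring genes, since 44 of the 61 pairs (72.1%) passed the same test. These pairs are consecutive microRNA genes on 1 strand, at most 1 kb apart from start to start, with 20 or more reads in all for each gene.

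Set against the other neighbours, the change of ratio within Mir132 and Mir212 was modest and the gap in level was wide. The absolute change was 0.33 on the log2 scale, beside a median of 0.59 over the 61 pairs, and 20 pairs changed less and 40 changed more. The smallest changes were in Mir501 and Mir362 (0.01), Mir541 and Mir409 (0.02) and Mir181d and Mir181c (-0.03). The largest were in Mir92-2 and Mir363 (4.48), Mir543 and Mir666 (2.81) and Mir3078 and Mir124a-1 (-2.44). Mir363 had only 74 and 3 counts and Mir124a-1 only 10 and 18. Averaged over the libraries, the level ratio of Mir132 to Mir212 was 3.97 on the log2 scale, beside a median absolute level ratio of 2.92 over the pairs, and 19 pairs were further apart.

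Mir132 and Mir212 moved the same way, as did 32 of the 61 pairs, while the genes of the other 29 had log2 ratios of opposite sign. Both genes of a pair were called higher in replicate 2 in 13 pairs (21.3%), Mir132 and Mir212 among them. The pairs are not independent, because they were formed from 106 genes, some of which are in 2 pairs. In 25 pairs at least 1 gene shares 20 bases with another microRNA gene, which was not so for Mir132 and Mir212.

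**Figure D3:**
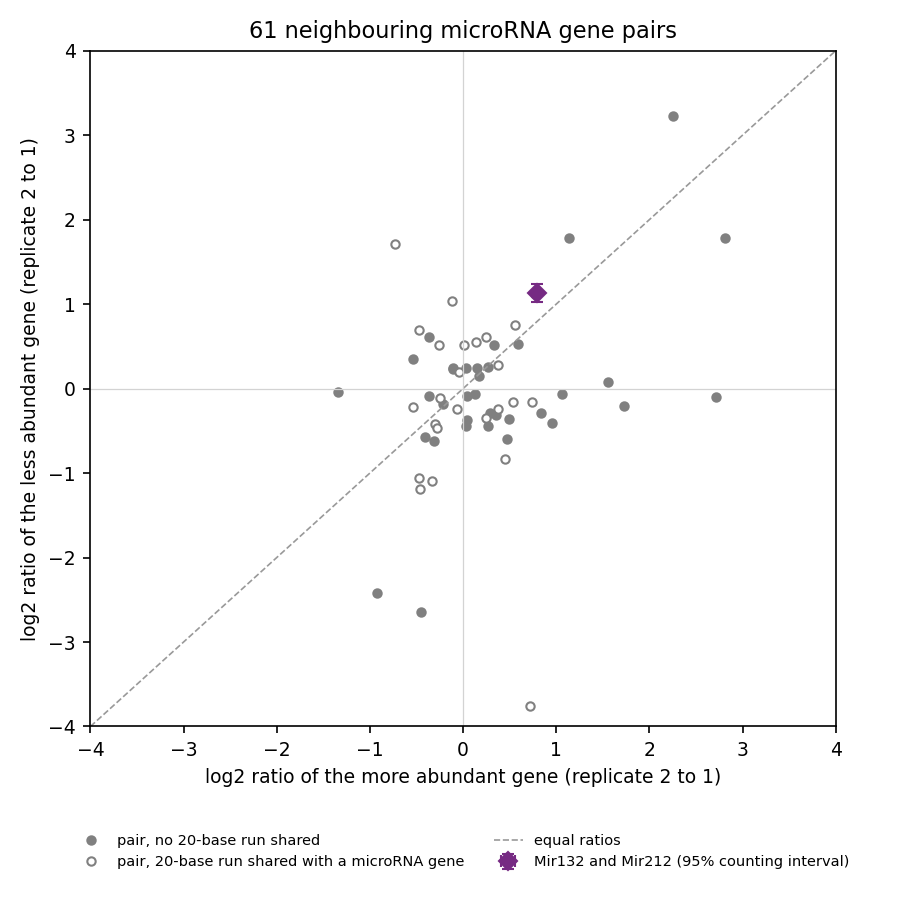
Log2 ratio of replicate 2 to replicate 1 for the more abundant gene (x axis) and the less abundant gene (y axis) of 61 neighbouring pairs, with open circles where a gene shares 20 bases with another microRNA gene. Mir132 and Mir212 (diamond, 0.80 and 1.13, with 95% counting intervals) lie in the upper right, above the dashed line of equal ratios.

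Other microRNAs tied to neuronal activity or synaptic plasticity did not all follow the locus. Of a list of 14 such genes, all were tested, 8 were called higher in replicate 2, 4 lower and 2 did not pass, with a median log2 ratio of 0.30 beside 0.01 over all genes tested. The shares called higher and lower over all genes were 32.9% and 32.0%. These shares include genes with few reads, which are harder to call. With a minimum of 200 reads over both libraries, 117 of 273 genes were called higher and 122 lower. At that minimum 7 genes of the list were called higher and 4 lower. The 14 genes are not independent. Mir379, Mir329, Mir381, Mir134 and Mir485 lie in the Mir379 to Mir410 cluster, and Mir138-1 and Mir138-2, like Mir92-1 and Mir92-2, are copies of the same microRNA. Within that cluster Mir381 and Mir485 were called higher, Mir379 and Mir134 lower, and Mir329 did not pass. The list was chosen with earlier results of these data known and is given as a description.

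Of the genes that were higher, Mir138-1 and Mir138-2, copies of a microRNA that limits the size of dendritic spines in rat neurons, gave log2 ratios of 1.50 (1.46 to 1.53) and 1.33 (1.28 to 1.37). Their levels are uncertain, as are those of Mir92-1 and Mir92-2, since each of these 4 has a run of 20 bases that another microRNA gene holds too. They make up 4 of the 8 genes called higher. Mir485, known to act on presynaptic proteins in homeostatic plasticity, gave 0.49 (0.45 to 0.53), and Mir381, a member of the Mir379 to Mir410 cluster needed for dendrite outgrowth, gave 0.69 (0.61 to 0.78). Mir191, Mir501, Mir92-1 and Mir92-2 gave 0.33, 0.26, 0.41 and 0.72.

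Of the genes that were lower, Mir137, a regulator of synapse function and neuronal maturation, gave -0.53 (-0.56 to -0.50) and Mir188 gave -0.60 (-0.70 to -0.50). Mir379 gave -0.18 (-0.20 to -0.15). Mir134, an inhibitor of Limk1 translation that limits spine size in hippocampal neurons, gave -0.09 (-0.15 to -0.02), which passed at an adjusted p of 0.0138 by the exact binomial test. Mir329 and Mir184 did not pass, at 0.01 (-0.10 to 0.13) and -0.03 (-0.61 to 0.54).

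In level, Mir132 was exceeded by 2 of the 14 genes in mean CPM, Mir191 at 9867 ± 1025 and Mir379 at 6645 ± 974 (SD, n = 2). In replicate 1, 3 of the 14 genes exceeded Mir132, namely Mir191, Mir379 and Mir137. In replicate 2 only Mir191 did. Mir212 was exceeded by 12 of the 14 genes in replicate 1 and by 10 in replicate 2.

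**Figure D4:**
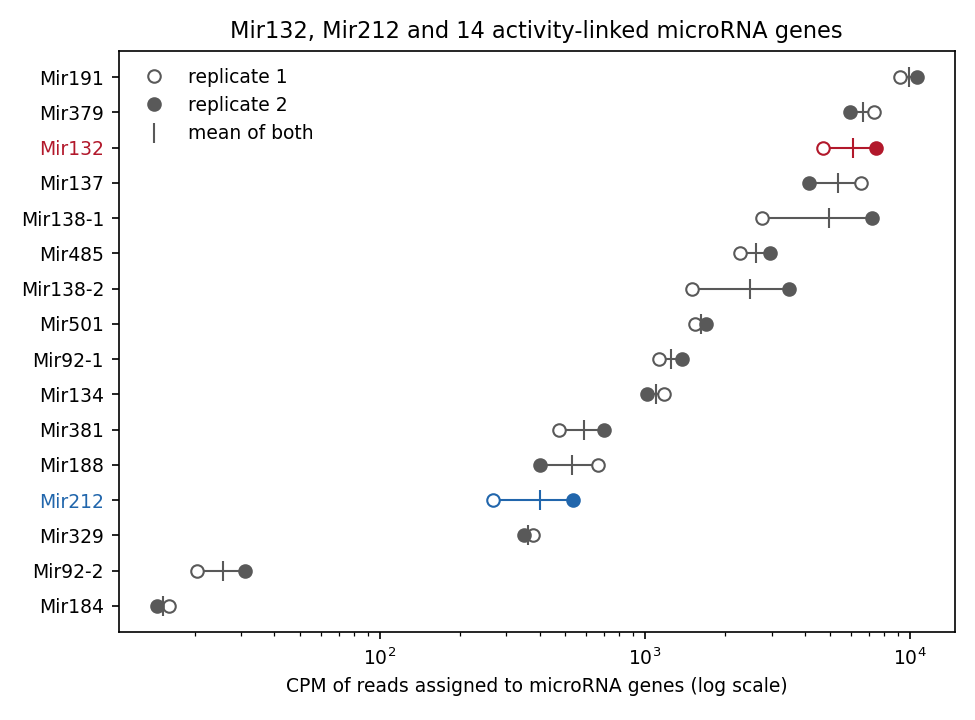
CPM of reads assigned to microRNA genes (x axis, log scale) in replicate 1 (open circles) and replicate 2 (filled circles), with the mean as a tick, for Mir132 (red), Mir212 (blue) and 14 activity-linked genes (grey). Mir132 spans 4678 to 7461 and Mir212 spans 266 to 535, each higher in replicate 2.

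The level of each gene relative to each of these 14 was compared between the libraries by Fisher's exact test, with adjustment over the 898 comparisons of Mir132 and Mir212 with every other tested gene, which were added after the data were seen. Mir132 rose in replicate 2 relative to 11 of the 14 and fell relative to 2, beside 67.5% and 7.57% of all 449 other genes tested. Mir212 had the same counts, beside 78.0% and 3.79% of the other genes. Both genes thus rose relative to most tested genes, within the list and outside it. This follows from their log2 ratios given above and is not a separate result. Mir132 had 0.717 reads per Mir137 read in replicate 1 and 1.80 in replicate 2, a log2 change of 1.33. Relative to Mir379 the change was 0.97, from 0.638 to 1.25 reads per read. Mir132 and Mir212 both fell relative to the uncertain Mir138-1, by 0.70 and 0.37 on the log2 scale, and relative to Mir138-2, by 0.53 and 0.20. The change of Mir132 relative to Mir92-2, at 0.07 (adjusted p = 0.799, Fisher's exact test), and of Mir212 relative to Mir92-2, at 0.41 (adjusted p = 0.0840), did not pass.

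By distance in log2(CPM + 1) over the 2 libraries, the 5 genes most like Mir132 were Mir342, Mir187, Mir92b, Mir409 and Mir330, at distances of 0.22, 0.34, 0.45, 0.47 and 0.60. Mir342, the nearest, stood at 4027 and 7254 CPM. The 5 most like Mir212 were Mir7-2, Mir339, Mir34a, Mir451a and Mir350, at 0.03, 0.41, 0.41, 0.42 and 0.47. Mir7-2, whose level is uncertain for the reason given above, stood at 270.3 and 543 CPM. In the order named, the log2 ratios were 0.97, 1.20, 0.66, 0.15 and -0.05 for the 5 genes most like Mir132, beside 0.80 for Mir132. They were 1.13, 1.07, 1.66, 1.73 and 0.58 for the 5 most like Mir212, beside 1.13 for Mir212. With 2 libraries this likeness says only that levels were close, and Mir330 did not share the direction of Mir132.

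On chromosome 11 the nearest microRNA gene among those tested was Mir22, 290.0 kb after Mir132. Mir22 had 3506 CPM in replicate 1 and 5288 in replicate 2, with a log2 ratio of 0.72 (0.68 to 0.75), and passed the test. Next on that side were Mir423, at 0.91 (0.86 to 0.95) and 1904 kb, and Mir144, at -0.21 (-0.56 to 0.13), which did not pass. On the other side, more than 4735 kb away, Mir7115 and Mir497 did not pass, at -0.995 (-2.34 to 0.17) and -0.04 (-0.09 to 0.02). Mir195a, beside Mir497, was lower in replicate 2 at -1.34 (-1.41 to -1.27).

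Summed levels of cell type markers differed between the libraries too, and the counts of called markers are to be read against the 32.9% of all tested genes called higher and the 32.0% called lower. Among neuronal markers 1 of 6 tested genes was higher in replicate 2 and 3 were lower, and the 9 genes of that list summed to 16508 and 7848 CPM. Of the copies of Mir124a, a defining neuronal microRNA, Mir124a-1 held 10 and 18 counts, and Mir124a-2 and Mir124a-3 at most 2 in either library. In 8 of the 9 genes, Mir137 being the exception, a run of 20 bases is found in another microRNA gene too, so their levels are uncertain. Oligodendrocyte markers summed to 1928 and 3198 CPM, with 2 of 3 higher. Those 2, Mir219a-1 and Mir219a-2, are uncertain for the same reason, and Mir338, which is not, did not pass at -0.05 (-0.14 to 0.04). Microglial and immune markers summed to 830 and 685 CPM, with none of 5 higher and 2 lower, of which Mir146 is uncertain in the same way and Mir155 is not.

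Vessel markers summed to 15962 and 20349 CPM, with 1 of 3 higher and 2 lower. Red blood cell markers summed to 290.0 and 722 CPM, with 1 of 3 higher. These shares rest on 3 genes each and, for those higher, are close to that of all tested genes. The sums rose through Mir126a and Mir451a alone, and the other genes of both lists had lower CPM in replicate 2. Markers of choroid plexus and ciliated cells summed to 3948 and 1186 CPM, with 4 of 4 lower, and epithelial markers to 83.3 and 331 CPM, with 5 of 5 higher. No list had a gene at 0 in both libraries. In bulk tissue, fewer cells of a type and less RNA per cell cannot be told apart. The part of these differences in the higher level of Mir132 and Mir212 in replicate 2 was not tested.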

How the data were processed

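For each library the authors deposited a table of raw counts by microRNA gene, made on mm10 with GENCODE M21, per the readme deposited beside it. Which aligner and counter made them is not given in the sources used here. Sense counts were read from whichever strand column summed higher. Lines that name no gene stayed out of library sizes. In replicates 1 and 2 they held 17.1% and 20.6% of all reads as unmapped, 40.8% and 37.1% as multi-mapping and 5.98% and 5.82% as matching no gene.

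CPM used the assigned total. Library sizes were scaled by TMM in edgeR 4.0.16 (R 4.3.3), and each gene with 20 or more reads over both libraries was tested by an exact binomial test, Benjamini-Hochberg adjusted at 0.05, after a check on simulated data. The simulated data held counting noise only, so that check does not cover spread between pools or from amplification. Since the single group has no contrast, edgeR's own model could not be fitted. Fisher's exact tests compared read ratios. Intervals are exact Clopper-Pearson at 95%. Symbols, exons and coordinates came from M21, sequences from RefSeq, and free energies from RNAfold 2.7.2. Python 3.11.15 and scipy 1.17.1 were used.

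The genes and lists were chosen with earlier results of these data known. The genes named were Mir132 and Mir212, 14 activity-linked genes, cell type markers, the 2 genes on each side in rank, the 5 most alike, the 3 nearest expressed genes on each side of the locus, and the 3 pairs with the smallest and the 3 with the largest change. The marker Mir146a was matched to its M21 symbol Mir146 through RefSeq synonyms. Alternatives included DESeq2 1.42.0 size factors.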

Additional observations from a re-analysis of the deposited data

How the results depend on the processing

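Both genes stayed higher in replicate 2, and past the threshold, under total counts or DESeq2 size factors as library sizes, without a filter, with a minimum of 200 reads, with the unstranded column, the deeper library thinned to the depth of the other, and an adjusted p under 0.01. The log2 ratio ranged from 0.67 to 0.81 for Mir132 and from 1.01 to 1.14 for Mir212 over these 7 alternatives. The change of their ratio passed in each of 5 alternatives, but only thinning the deeper library could alter its value, to -0.35. The other settings used the same reads of this pair, so its value of -0.33 was fixed there. With all reads as the denominator of CPM, multi-mapping and unmapped ones included, the mean levels were 2202 for Mir132 and 145 for Mir212. Without replicate 1 or 2 the Mir132 level was 7461 or 4678 CPM and that of Mir212 535 or 266, and the ratio of their reads 13.9 or 17.6.

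Of neighbouring pairs at most 10 kb apart, 70 of 97 passed, and of pairs without shared runs of 20 bases, an alternative added after seeing the data, 27 of 36. The activity-linked list had 7 or 8 genes higher and 3 or 4 lower under each alternative. The 5 genes most like each gene were the same at pseudocounts of 0.1 and 10. Leaving out a replicate gives no difference between pools. No paired analysis was possible because there is 1 group. With 2 libraries the spread between pools is poorly known, and at 1268 reads Mir212 was the less precisely counted gene.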
